A study of Homo sapiens with 4 samples.

Results

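Interferon-stimulated genes are the genes that cells switch on after interferon binds its receptors, and 47 of them, chosen by gene name, were followed here among the 31319 genes of each table. The samples were 2 established human bladder cancer cell lines, T24 and UM-UC-3, each kept for 48 h in 140 µM OICR-9429 or in its vehicle DMSO. OICR-9429 is a small molecule that occupies the pocket of WDR5 through which this scaffold protein binds MLL1, a histone H3 lysine 4 methyltransferase. There were 4 libraries, 1 per line and condition: treated T24, T24 in DMSO, treated UM-UC-3 and UM-UC-3 in DMSO. T24 was grown in RPMI-1640 and UM-UC-3 in DMEM, both with serum, so the line and the medium cannot be told apart. No added interferon, infection or genetic change is given in the labels. The labels give 140 µM, but 125 stands in the column headings of both treated libraries, and what it refers to is not stated. The measured value is the FPKM, the fragments of a gene scaled to its length and to the size of the library, so levels of different genes can be set side by side on this scale.

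Cells sense viral or misplaced nucleic acid with receptors such as RIG-I and MDA5, which signal through MAVS to IRF3 and IRF7 and so start interferon production. Type I and type III interferons then act through the kinases JAK1 and TYK2 on a complex called ISGF3, which holds STAT2 and IRF9. This complex binds the interferon-stimulated response element (ISRE) near gene starts, whereas the gamma-activated site (GAS) serves the response to interferon gamma. Many of the induced proteins block virus entry, translation or replication, and many tumour lines hold some of them on without added interferon.

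With 1 library per line and condition there is no replicate error within a line, and no p-value is given there. A gene was called higher or lower by a rule of size, namely FPKM + 0.5 had to differ 2-fold or more and the FPKM had to reach 1 in either of the libraries compared. Log2 fold changes compare FPKM + 0.5 in OICR-9429 with that in DMSO, and the added 0.5 shrinks them for low genes. Reads were worked back from the FPKM values, and 95% intervals from them are exact Poisson intervals for levels and exact conditional intervals for ratios. These intervals cover counting error only. The libraries held 28209432 to 29335051 reads. Of 5 epithelial markers, the keratin genes KRT8 and KRT18 were at 14.6 to 91.3 FPKM in the 4 libraries, while KRT7 (0.10 to 2.46 FPKM), KRT19 (0 to 0.046 FPKM) and the E-cadherin gene CDH1 (0 to 0.022 FPKM) were low or at 0. Of 5 urothelial markers, the uroplakin genes UPK1A, UPK1B and UPK2 and the regulator gene GATA3 did not pass 0.81 FPKM. The remaining one, the nuclear receptor gene PPARG, had 6.93 FPKM in OICR-9429 and 3.12 FPKM in DMSO in T24, and 5.86 FPKM in OICR-9429 and 1.55 FPKM in DMSO in UM-UC-3. The 4 leukocyte markers in the tables summed to 0.165 to 0.694 FPKM and the 3 endothelial markers to 0.15 to 0.32 FPKM, and the leukocyte marker PTPRC was at 0 in 3 libraries and at 0.00407 FPKM in treated T24.

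Promoter sequences of 37 of the 47 genes were matched by symbol in RefSeq on GRCh38.p14, from 250 bases before to 50 bases after the start. The ISRE core GAAANNGAAA was searched on both strands with overlapping matches kept, and it was in 24 of the 37 (64.9%), against 3.65% of 27305 promoters of the same length. It was in 8 of the 14 matched genes called lower in UM-UC-3 (57.1%) and in 16 of the 23 others (69.6%). The GAS letters TTCNNNGAA were in 10 of the 37 (27%), against 7.88% of all promoters. They were in 1 of the 14 matched genes called lower in UM-UC-3 (7.14%) and in 9 of the 23 others (39.1%). Of the 21 genes called lower there, DHX58, IFIT2, OAS2, OASL, MX2, USP18 and TRIM22 were not matched. Of the other genes only IRF7, GBP2 and IFITM2 were not matched. The loss was thus uneven, and the called and other genes are not compared by these shares. A match describes letters and not a bound site. OAS3 and IFI6 are shown because these were the genes called lower in both lines. IFIT3, IFIT1, ISG15 and LGALS3BP were added after their values were seen, as the genes with the lowest log2 fold changes in UM-UC-3, a gene at the edge of the call and the only gene called higher in T24. Capitals mark the ISRE core on either strand, and each run has 25 bases on either side of the first and last match, or ends at the base before the start. The windows lie at chr12:112938306-112938473 on the plus strand for OAS3, chr1:27672251-27672373 on the minus strand for IFI6, chr10:89327816-89327909 on the plus strand for IFIT3, chr10:89392482-89392554 on the plus strand for IFIT1, chr1:1013359-1013424 on the plus strand for ISG15 and chr17:78979947-78980006 on the minus strand for LGALS3BP.
OAS3: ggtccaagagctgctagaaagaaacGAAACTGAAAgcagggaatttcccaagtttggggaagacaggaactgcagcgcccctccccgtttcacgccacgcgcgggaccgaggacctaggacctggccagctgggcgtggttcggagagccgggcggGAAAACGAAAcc
IFI6: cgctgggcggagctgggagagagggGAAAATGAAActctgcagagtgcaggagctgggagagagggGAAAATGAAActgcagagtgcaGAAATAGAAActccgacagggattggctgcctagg
IFIT3: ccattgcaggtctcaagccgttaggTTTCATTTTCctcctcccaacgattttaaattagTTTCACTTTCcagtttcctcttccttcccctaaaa
IFIT1: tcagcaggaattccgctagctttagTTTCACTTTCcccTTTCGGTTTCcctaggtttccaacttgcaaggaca
ISG15: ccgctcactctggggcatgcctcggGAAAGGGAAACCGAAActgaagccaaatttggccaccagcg
LGALS3BP: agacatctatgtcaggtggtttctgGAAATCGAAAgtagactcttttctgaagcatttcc
OAS3 carried matches that begin 143 and 12 bases before its start, IFI6 had 3 between 156 and 93 bases, and IFIT3 had 2 between 156 and 122 bases. IFIT1 had 2 between 116 and 103 bases, ISG15 had 2 that overlap, between 113 and 107 bases, and LGALS3BP had 1 at 58 bases.

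**Figure D1:**
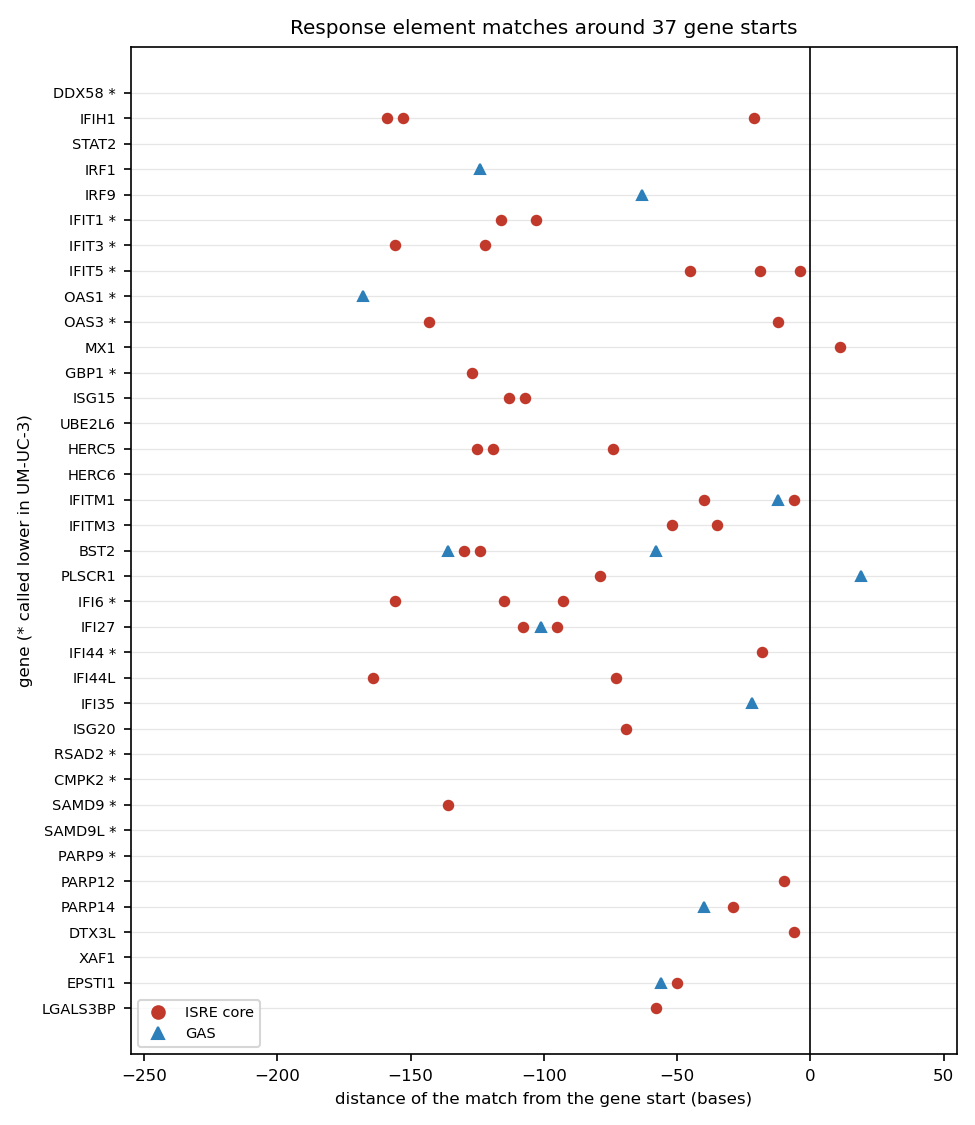
Distance in bases of each ISRE core (circles) and GAS (triangles) match from the gene start, for the 37 genes with a RefSeq promoter, with an asterisk on those called lower in UM-UC-3. Most circles lie upstream of the start, and genes with and without an asterisk both carry them.

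The lines differed in these genes without OICR-9429, after 48 h in DMSO. All 47 had a lower FPKM in T24 in DMSO than in UM-UC-3 in DMSO. Summed over the 47 genes, the level was 194 FPKM in T24 in DMSO and 3309 FPKM in UM-UC-3 in DMSO, 17.1-fold lower in T24. At least 1 FPKM was reached by 23 of the genes in T24 in DMSO and by 45 in UM-UC-3 in DMSO, and at least 100 FPKM by 0 in T24 and 9 in UM-UC-3. By the rule of size 40 of the 45 measured genes were called lower in T24 (88.9%), against 13.5% of 13393 measured genes, and 0 were called higher, against 14.9% of all. The median log2 difference, T24 minus UM-UC-3, was -3.44 for the 45 measured genes and 0.03 for all genes. In bulk RNA, fewer cells of a kind and less RNA per cell cannot be told apart.

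IFI44 had 0.306 FPKM in T24 in DMSO and 184 FPKM in UM-UC-3 in DMSO, 602-fold lower in T24 (95% interval 381 to 1017). IFIT3, at 0.696 FPKM in T24 in DMSO and 238 FPKM in UM-UC-3 in DMSO, was 343-fold lower (262 to 458). IFI6 was 68.5-fold lower (60.6 to 77.6) and ISG15 25.7-fold lower (23.5 to 28.2). MX2, IFITM1, BST2 and IFI44L had 0 reads in T24 in DMSO, against 155 to 2239 reads in UM-UC-3 in DMSO. The 5 measured genes below the size of a call were the transcription factor genes STAT2, IRF1, IRF7 and IRF9 and the ADP-ribosyltransferase gene PARP12, with log2 differences of -0.61 to -0.96. After OICR-9429 all 47 genes were still lower in T24 than in UM-UC-3, and the summed level was 184 FPKM in treated T24 and 1471 FPKM in treated UM-UC-3, 8.01-fold lower in T24.

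**Figure D2:**
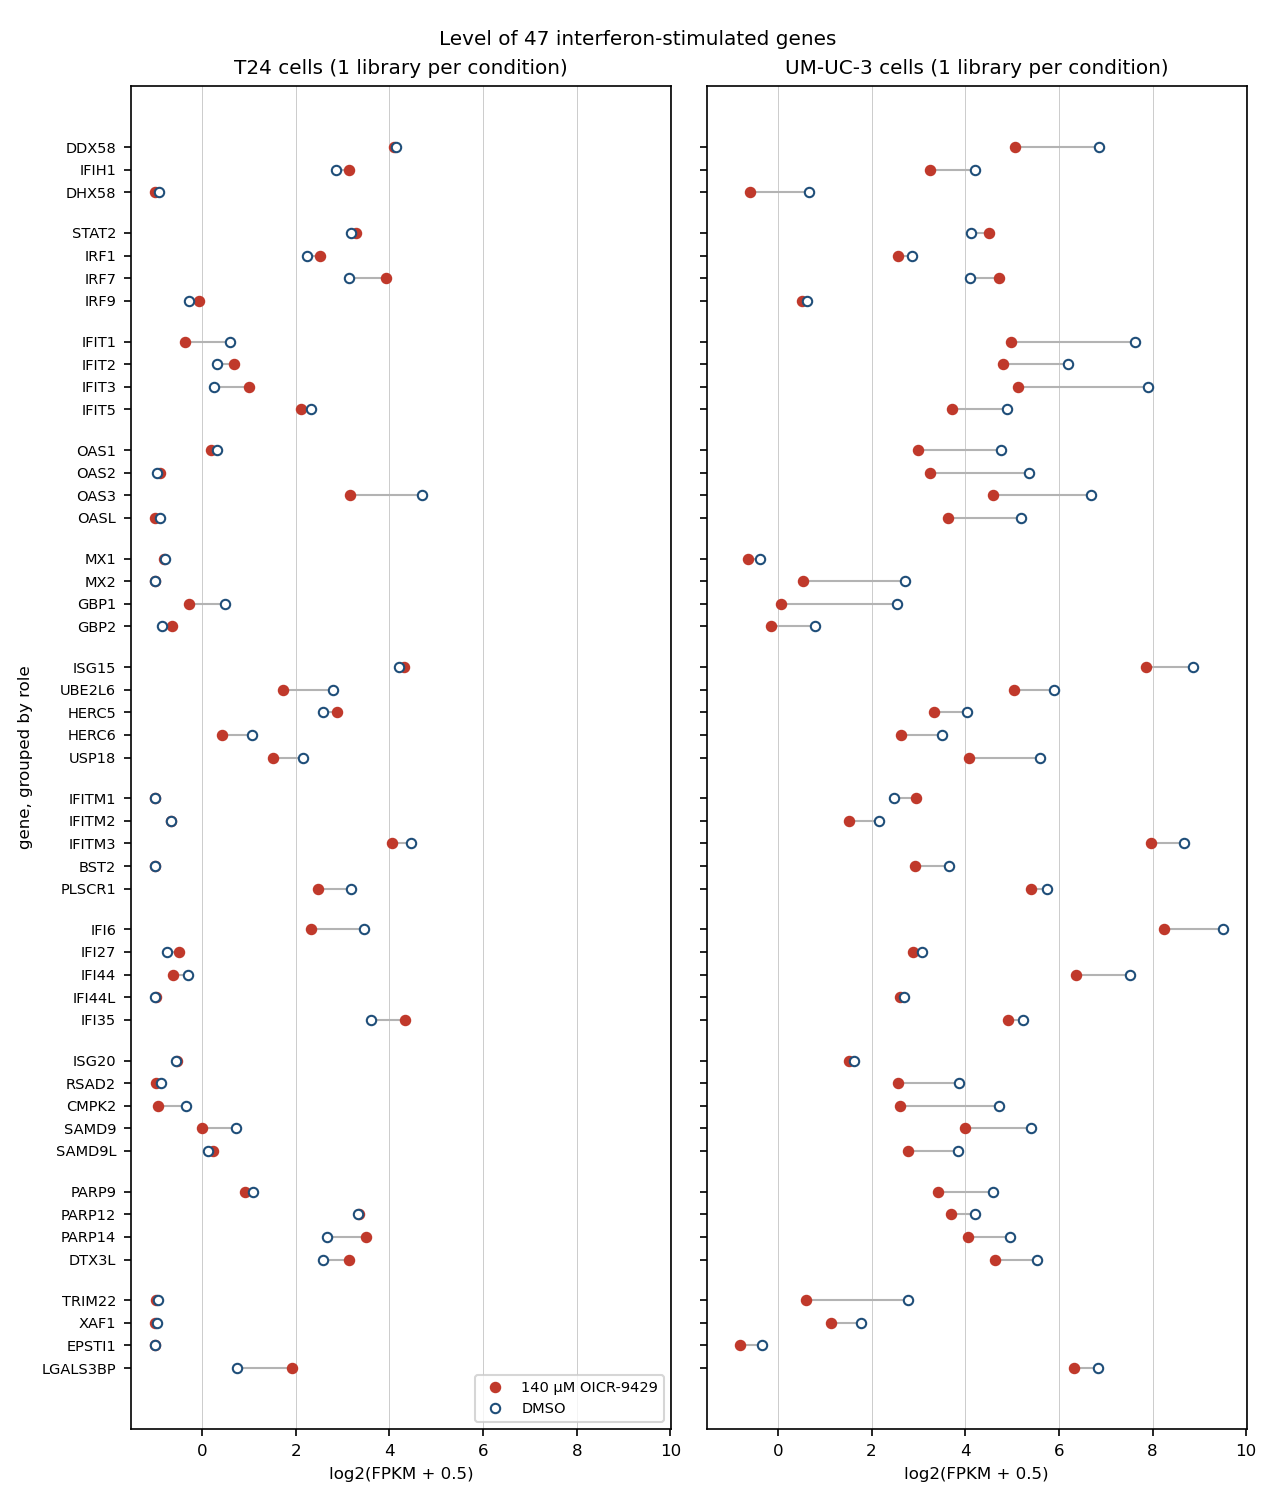
Level of each of the 47 genes as log2(FPKM + 0.5) in T24 (left) and UM-UC-3 (right), filled circles for OICR-9429 and open circles for DMSO, 1 library each, with genes grouped by role. In UM-UC-3 most filled circles lie left of the open ones, and in T24 many genes sit at the low end in both libraries.

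In UM-UC-3, OICR-9429 was accompanied by lower levels of most of these genes. Of the 45 measured, 21 were called lower (46.7%), against 12.1% of 13086 measured genes, and 0 were called higher, against 14% of all. The log2 fold change was negative in 42 of the 45 and positive in STAT2, IFITM1 and IRF7, and its median was -0.97, against 0.09 for all measured genes. The summed level was 1471 FPKM in OICR-9429 and 3309 FPKM in DMSO, 2.25-fold lower in the treated cells. IFI6, ISG15 and IFITM3 made up 53.5% of this sum in OICR-9429 and 48.2% in DMSO. Without these 3 the other 44 genes summed to 683 FPKM in OICR-9429 and 1716 FPKM in DMSO. Among the 9 genes at 100 FPKM or more in DMSO, 6 were called lower, among 23 at 10 to under 100 FPKM it was 11, and among 15 below 10 FPKM it was 4. The DMSO value set these groups and also entered the fold change, which favours lower calls at high DMSO levels. The constant added to the FPKM and the FPKM minimum hold back calls of low genes. No share of all genes at the same levels is given, so these counts are not read as a dependence on level. The sums of the epithelial and of the mesenchymal markers were also lower in treated UM-UC-3, while that of the urothelial markers was higher. The 5 epithelial markers summed to 30 FPKM in OICR-9429 and 106.6 FPKM in DMSO, and the 4 mesenchymal markers (VIM, CDH2, ZEB1 and FN1) to 105.9 FPKM in OICR-9429 and 220.1 FPKM in DMSO. Most of these sums came from KRT8, KRT18 and the vimentin gene VIM, and the last had 79.3 FPKM in OICR-9429 and 182.6 FPKM in DMSO. ZEB1 was not lower, with 17.6 FPKM in OICR-9429 and 17.3 FPKM in DMSO. The 5 urothelial markers summed to 6.698 FPKM in OICR-9429 and 2.065 FPKM in DMSO. In T24 the epithelial sum was 97.96 FPKM in OICR-9429 and 165.3 FPKM in DMSO. The mesenchymal sum in T24 was 100.4 FPKM in OICR-9429 and 60.8 FPKM in DMSO, although its member CDH2 had 8.85 and 14.7 FPKM. The T24 urothelial sum was 7.02 FPKM in OICR-9429 and 4.387 FPKM in DMSO. The part of these markers in the result was not tested.

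In T24 few of these genes reached the size of a call. Of the 25 measured, 3 were called lower (12%), against 13.5% of 12638 measured genes, and these were OAS3, IFI6 and UBE2L6. LGALS3BP alone was called higher (4%), against 6.93% of all. The share called lower was thus close to that of all genes. The median log2 fold change was 0.02, against -0.15 for all measured genes, and the summed level was 184 FPKM in OICR-9429 and 194 FPKM in DMSO. Scaling the libraries by trimmed means of M values (TMM) moved the median of all genes to 0.01, and IFI6 (-0.99) and UBE2L6 (-0.93) then missed the call. UBE2L6 also missed it with a pseudocount of 1 (-0.97). Over all genes, 66.1% of the T24 calls were lower without TMM and 53.2% with it. Of the 47 genes, 15 in each T24 library had fewer than 20 reads, and for these only large differences would be detectable at this depth.

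**Figure D3:**
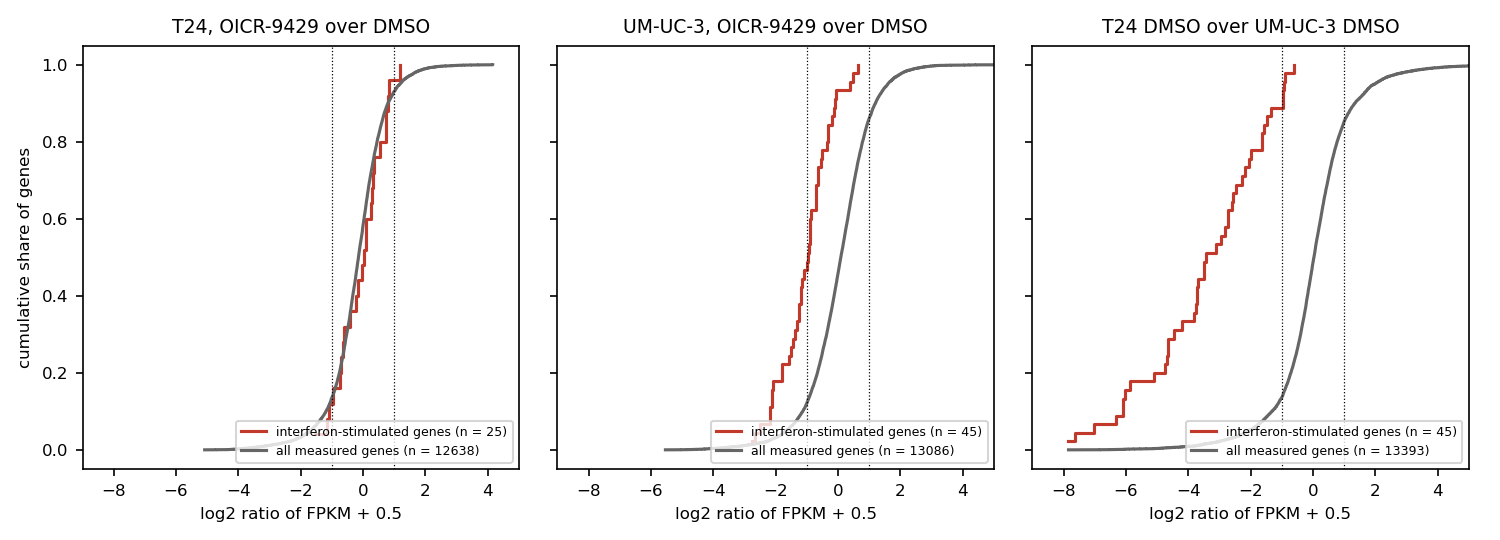
Cumulative share of genes by log2 ratio of FPKM + 0.5 for the interferon-stimulated genes (red) and all measured genes (grey), in T24 and UM-UC-3 for OICR-9429 over DMSO and for T24 in DMSO over UM-UC-3 in DMSO, with dotted lines at the size of a call. The red curve follows the grey one in T24 (medians 0.02 and -0.15) and lies left of it in UM-UC-3 (medians -0.97 and 0.09) and between the lines (medians -3.44 and 0.03).

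The IFIT genes encode proteins with tetratricopeptide repeats that bind foreign or uncapped RNA and hold back its translation. All 4 were called lower in UM-UC-3, and together they summed to 106 FPKM in OICR-9429 and 537 FPKM in DMSO. IFIT3 had 34.4 FPKM in OICR-9429 and 238 FPKM in DMSO in UM-UC-3, 6.92-fold lower (95% interval 6.64 to 7.21), the largest log2 fold change of the 47 genes (-2.77). In T24 it had 1.51 FPKM in OICR-9429 and 0.696 FPKM in DMSO, a log2 fold change of 0.75 that rests on 117 and 53 reads. IFIT1, which binds RNA caps that lack a methyl mark, had 30.8 FPKM in OICR-9429 and 197 FPKM in DMSO in UM-UC-3, 6.39-fold lower (6.19 to 6.61). It was also low in treated T24, with 0.281 FPKM (38 reads) in OICR-9429 and 1.02 FPKM (136 reads) in DMSO. The T24 log2 fold change of IFIT1, -0.96, lay just outside the size of a call. IFIT2 had 27.5 FPKM in OICR-9429 and 72.4 FPKM in DMSO in UM-UC-3, and 1.10 FPKM in OICR-9429 and 0.743 FPKM in DMSO in T24. IFIT5 had 12.7 FPKM in OICR-9429 and 29.3 FPKM in DMSO in UM-UC-3, and 3.82 FPKM in OICR-9429 and 4.504 FPKM in DMSO in T24. Partner proteins IFIT1 and IFIT3 thus had opposite signs in T24 and the same sign in UM-UC-3. The difference between the lines was not tested for any gene, because each line has 1 library per condition.

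The OAS genes encode enzymes that, on binding double-stranded RNA, make the short oligoadenylates which activate RNase L, and the related protein OASL lacks this activity and acts on RIG-I. All 4 were called lower in UM-UC-3, with a sum of 51.8 FPKM in OICR-9429 and 205 FPKM in DMSO. OAS3 had 23.6 FPKM in OICR-9429 and 102 FPKM in DMSO in UM-UC-3, 4.32-fold lower (95% interval 4.20 to 4.45). In T24 it had 8.37 FPKM in OICR-9429 and 25.3 FPKM in DMSO, 3.03-fold lower (2.88 to 3.18), and it was the only OAS gene at 1 FPKM or more there. In both lines the treated library was below the DMSO library by more than counting error. OAS2 had 8.97 FPKM in OICR-9429 and 40.5 FPKM in DMSO in UM-UC-3, against 0.0327 FPKM (6 reads) in OICR-9429 and 0.0111 FPKM (2 reads) in DMSO in T24. OAS1 had 7.42 FPKM in OICR-9429 and 26.8 FPKM in DMSO in UM-UC-3, and 0.634 FPKM in OICR-9429 and 0.742 FPKM in DMSO in T24. OASL had 11.8 FPKM in OICR-9429 and 36.0 FPKM in DMSO in UM-UC-3, while in T24 it had 0 reads in OICR-9429 and 4 reads in DMSO. OAS1 and OAS3 start 31512 bases apart on chromosome 12 and are transcribed in the same direction, and both were called lower in UM-UC-3.

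The cytoplasmic sensors of double-stranded RNA were also lower in treated UM-UC-3. DDX58, which encodes RIG-I, had 33.0 FPKM in OICR-9429 and 115 FPKM in DMSO in UM-UC-3, 3.49-fold lower (95% interval 3.37 to 3.61). In T24 it had 16.5 FPKM in OICR-9429 and 17.0 FPKM in DMSO, and the interval of the ratio, 0.914 to 1.03, spanned no change. IFIH1, which encodes MDA5, had 8.997 FPKM in OICR-9429 and 18.0 FPKM in DMSO in UM-UC-3, just short of the call (log2 fold change -0.97), and 8.24 FPKM in OICR-9429 and 6.80 FPKM in DMSO in T24. DHX58, which encodes the regulator LGP2, had 0.16 FPKM (18 reads) in OICR-9429 and 1.08 FPKM (117 reads) in DMSO in UM-UC-3, and was called lower. It had 0 reads in OICR-9429 and 3 reads in DMSO in T24.

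None of the transcription factor genes was called in either line. STAT2 and IRF9 are subunits of ISGF3, IRF1 is induced chiefly by interferon gamma, and IRF7 amplifies interferon production. STAT2 had 22.2 FPKM in OICR-9429 and 17.0 FPKM in DMSO in UM-UC-3, and 9.26 FPKM in OICR-9429 and 8.55 FPKM in DMSO in T24. IRF7 had 26.0 FPKM in OICR-9429 and 16.6 FPKM in DMSO in UM-UC-3, and 14.7 FPKM in OICR-9429 and 8.29 FPKM in DMSO in T24. These 2 were the only measured genes of the 47 with a higher value in OICR-9429 in both lines, and the log2 fold change of STAT2 was 0.38 in UM-UC-3 and 0.11 in T24, that of IRF7 0.64 in UM-UC-3 and 0.79 in T24. IRF1 had 5.37 FPKM in OICR-9429 and 6.75 FPKM in DMSO in UM-UC-3, and 5.22 FPKM in OICR-9429 and 4.24 FPKM in DMSO in T24. IRF9 was low throughout, with 0.93 FPKM in OICR-9429 and 1.05 FPKM in DMSO in UM-UC-3, and 0.458 FPKM in OICR-9429 and 0.32 FPKM in DMSO in T24.

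ISG15 is a ubiquitin-like protein that is attached to other proteins by the conjugating enzyme UBE2L6 and the ligase HERC5, and removed by USP18, which also blocks the type I receptor. All 5 genes of this group had lower values in treated UM-UC-3, but only USP18 was called. USP18 had 16.5 FPKM in OICR-9429 and 47.9 FPKM in DMSO in UM-UC-3, 2.90-fold lower (95% interval 2.70 to 3.12), and 2.37 FPKM in OICR-9429 and 3.95 FPKM in DMSO in T24. ISG15 had 232 FPKM in OICR-9429 and 464 FPKM in DMSO in UM-UC-3, with a log2 fold change of -0.998 just outside the call, and 19.5 FPKM in OICR-9429 and 18.1 FPKM in DMSO in T24. ISG15 was 2.0-fold lower in treated UM-UC-3 with an interval of 1.94 to 2.06, so the side of the call is not settled by the reads. UBE2L6 alone of the group was called lower in T24, and it missed the call in UM-UC-3. It had 2.81 FPKM in OICR-9429 and 6.48 FPKM in DMSO in T24, 2.31-fold lower (1.93 to 2.76), and 32.3 FPKM in OICR-9429 and 59.4 FPKM in DMSO in UM-UC-3, 1.84-fold lower (1.74 to 1.94). HERC5 had 9.60 FPKM in OICR-9429 and 15.9 FPKM in DMSO in UM-UC-3, and 6.87 FPKM in OICR-9429 and 5.46 FPKM in DMSO in T24. HERC6, a related gene, had 5.66 FPKM in OICR-9429 and 10.9 FPKM in DMSO in UM-UC-3, and 0.847 FPKM in OICR-9429 and 1.58 FPKM in DMSO in T24.

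IFI6, a small membrane protein induced chiefly by type I interferon, was the most abundant of the 47 in UM-UC-3. It had 304 FPKM in OICR-9429 and 721 FPKM in DMSO there, 2.37-fold lower (95% interval 2.31 to 2.44), and 4.49 FPKM in OICR-9429 and 10.5 FPKM in DMSO in T24, 2.34-fold lower (1.88 to 2.95). The intervals of the folds overlapped, although the DMSO levels of the lines differed 68.5-fold. IFI44 had 81.6 FPKM in OICR-9429 and 184 FPKM in DMSO in UM-UC-3 and was called lower, and in T24 it had 0.151 FPKM (9 reads) in OICR-9429 and 0.306 FPKM (18 reads) in DMSO. Its neighbour IFI44L, 29341 bases away on chromosome 1, had 5.63 FPKM in OICR-9429 and 5.94 FPKM in DMSO in UM-UC-3, and 1 read in OICR-9429 and 0 reads in DMSO in T24. The interval of the UM-UC-3 ratio for IFI44L, 0.886 to 1.02, spanned no change. IFI27 had 6.92 FPKM in OICR-9429 and 7.90 FPKM in DMSO in UM-UC-3, and 0.214 FPKM (26 reads) in OICR-9429 and 0.0919 FPKM (11 reads) in DMSO in T24. IFI35 had 29.6 FPKM in OICR-9429 and 37.3 FPKM in DMSO in UM-UC-3, and 19.7 FPKM in OICR-9429 and 11.7 FPKM in DMSO in T24.

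None of the 5 genes of membrane proteins was called in either line. The IFITM proteins sit in plasma and endosomal membranes and oppose fusion of viruses, and BST2, or tetherin, holds budding virions at the surface. IFITM3 had 251 FPKM in OICR-9429 and 408 FPKM in DMSO in UM-UC-3, 1.62-fold lower (95% interval 1.58 to 1.67), and 16.1 FPKM in OICR-9429 and 21.7 FPKM in DMSO in T24. IFITM1 had 7.23 FPKM in OICR-9429 and 5.09 FPKM in DMSO in UM-UC-3, and IFITM2 had 2.35 FPKM in OICR-9429 and 3.95 FPKM in DMSO. In T24 IFITM1 and BST2 had 0 reads in both libraries and IFITM2 had 6 reads in each. IFITM1, IFITM2 and IFITM3 are close copies, so reads may be divided wrongly among them, and their values are uncertain. BST2 had 7.13 FPKM in OICR-9429 and 12.0 FPKM in DMSO in UM-UC-3. PLSCR1, a phospholipid scramblase, had 42.0 FPKM in OICR-9429 and 53.5 FPKM in DMSO in UM-UC-3, and 5.03 FPKM in OICR-9429 and 8.51 FPKM in DMSO in T24.

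Among the GTPase genes, MX2 and GBP1 were called lower in UM-UC-3. MX2, a dynamin-like protein that blocks nuclear import of viral genomes, had 0.94 FPKM in OICR-9429 and 6.08 FPKM in DMSO in UM-UC-3, 6.47-fold lower (95% interval 5.78 to 7.25), and 0 reads in both T24 libraries. GBP1, a guanylate-binding protein that coats vacuoles of pathogens, had 0.542 FPKM (79 reads) in OICR-9429 and 5.34 FPKM (752 reads) in DMSO in UM-UC-3, 9.85-fold lower (7.80 to 12.6). This was the highest ratio of the 47 genes within UM-UC-3. In T24 GBP1 stayed below 1 FPKM, with 0.321 FPKM in OICR-9429 and 0.909 FPKM in DMSO. GBP2 had 0.399 FPKM in OICR-9429 and 1.22 FPKM in DMSO in UM-UC-3, and 0.136 FPKM (25 reads) in OICR-9429 and 0.0552 FPKM (10 reads) in DMSO in T24. MX1, the best known of these antiviral GTPases, did not reach 1 FPKM in any library. It ranged between 0.0712 and 0.263 FPKM, and the only other gene of the 47 at such a level was EPSTI1, with 0 to 0.295 FPKM. MX1 had 64 reads in UM-UC-3 in DMSO, where IFI6, ISG15 and IFITM3 were at 408 to 721 FPKM.

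Enzymes that act on nucleic acids and nucleotides were mostly called lower in UM-UC-3. RSAD2 encodes viperin, which makes a chain-terminating nucleotide, and CMPK2 encodes a mitochondrial nucleotide kinase that supplies it. CMPK2 had 5.64 FPKM in OICR-9429 and 26.0 FPKM in DMSO in UM-UC-3, 4.61-fold lower (95% interval 4.24 to 5.00), and 0.0238 FPKM (3 reads) in OICR-9429 and 0.282 FPKM (35 reads) in DMSO in T24. RSAD2 had 5.44 FPKM in OICR-9429 and 14.1 FPKM in DMSO in UM-UC-3, 2.60-fold lower (2.39 to 2.83), and 1 read in OICR-9429 and 6 reads in DMSO in T24. The pair lies on opposite strands of chromosome 2 with starts 750 bases apart that overlap, and neither promoter window held an ISRE core. SAMD9 had 15.3 FPKM in OICR-9429 and 42.1 FPKM in DMSO in UM-UC-3, and 0.497 FPKM in OICR-9429 and 1.15 FPKM in DMSO in T24. Its neighbour SAMD9L, like it a restriction factor of poxviruses, had 6.32 FPKM in OICR-9429 and 13.96 FPKM in DMSO in UM-UC-3, and 0.669 FPKM in OICR-9429 and 0.597 FPKM in DMSO in T24. SAMD9L (-1.08) and PARP9 (-1.17) were the genes just inside the call in UM-UC-3. ISG20, a nuclease of RNA, had 2.38 FPKM in OICR-9429 and 2.58 FPKM in DMSO in UM-UC-3, and 0.194 FPKM in OICR-9429 and 0.184 FPKM in DMSO in T24.

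The ADP-ribosylation genes had lower values in UM-UC-3 and, other than PARP9, higher values in T24. PARP14, an ADP-ribosyltransferase, had 16.3 FPKM in OICR-9429 and 30.4 FPKM in DMSO in UM-UC-3, and 10.8 FPKM in OICR-9429 and 5.84 FPKM in DMSO in T24. Its log2 fold changes were -0.88 in UM-UC-3 and 0.84 in T24, neither of the size of a call. DTX3L, a ubiquitin ligase that pairs with PARP9, had 24.5 FPKM in OICR-9429 and 45.6 FPKM in DMSO in UM-UC-3, and 8.26 FPKM in OICR-9429 and 5.47 FPKM in DMSO in T24. PARP9 was the only one of the 4 to be called, with 10.3 FPKM in OICR-9429 and 23.7 FPKM in DMSO in UM-UC-3, and it had 1.39 FPKM in OICR-9429 and 1.63 FPKM in DMSO in T24. PARP9 and DTX3L share a start region on opposite strands of chromosome 3, with starts 446 bases apart. PARP12 had 12.5 FPKM in OICR-9429 and 17.9 FPKM in DMSO in UM-UC-3, and 9.66 FPKM in OICR-9429 and 9.50 FPKM in DMSO in T24.

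LGALS3BP, a secreted glycoprotein that binds galectins, was called higher in T24 and had a lower value in UM-UC-3. The T24 call was lost with a pseudocount of 1 (log2 fold change 0.97) and with a minimum of 5 FPKM, which the gene does not reach there. It had 3.26 FPKM (343 reads) in OICR-9429 and 1.17 FPKM (121 reads) in DMSO in T24, with a ratio of 2.79 (95% interval 2.26 to 3.46). In UM-UC-3 it had 79.2 FPKM in OICR-9429 and 115 FPKM in DMSO, 1.45-fold lower (1.41 to 1.49). TRIM22, a ubiquitin ligase with antiviral activity, had 1.01 FPKM in OICR-9429 and 6.39 FPKM in DMSO in UM-UC-3, 6.31-fold lower (5.38 to 7.44), and 1 read in OICR-9429 and 3 reads in DMSO in T24. XAF1, a proapoptotic partner of XIAP, had 1.69 FPKM in OICR-9429 and 2.94 FPKM in DMSO in UM-UC-3, and 0 reads in OICR-9429 and 3 reads in DMSO in T24.

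**Figure D4:**
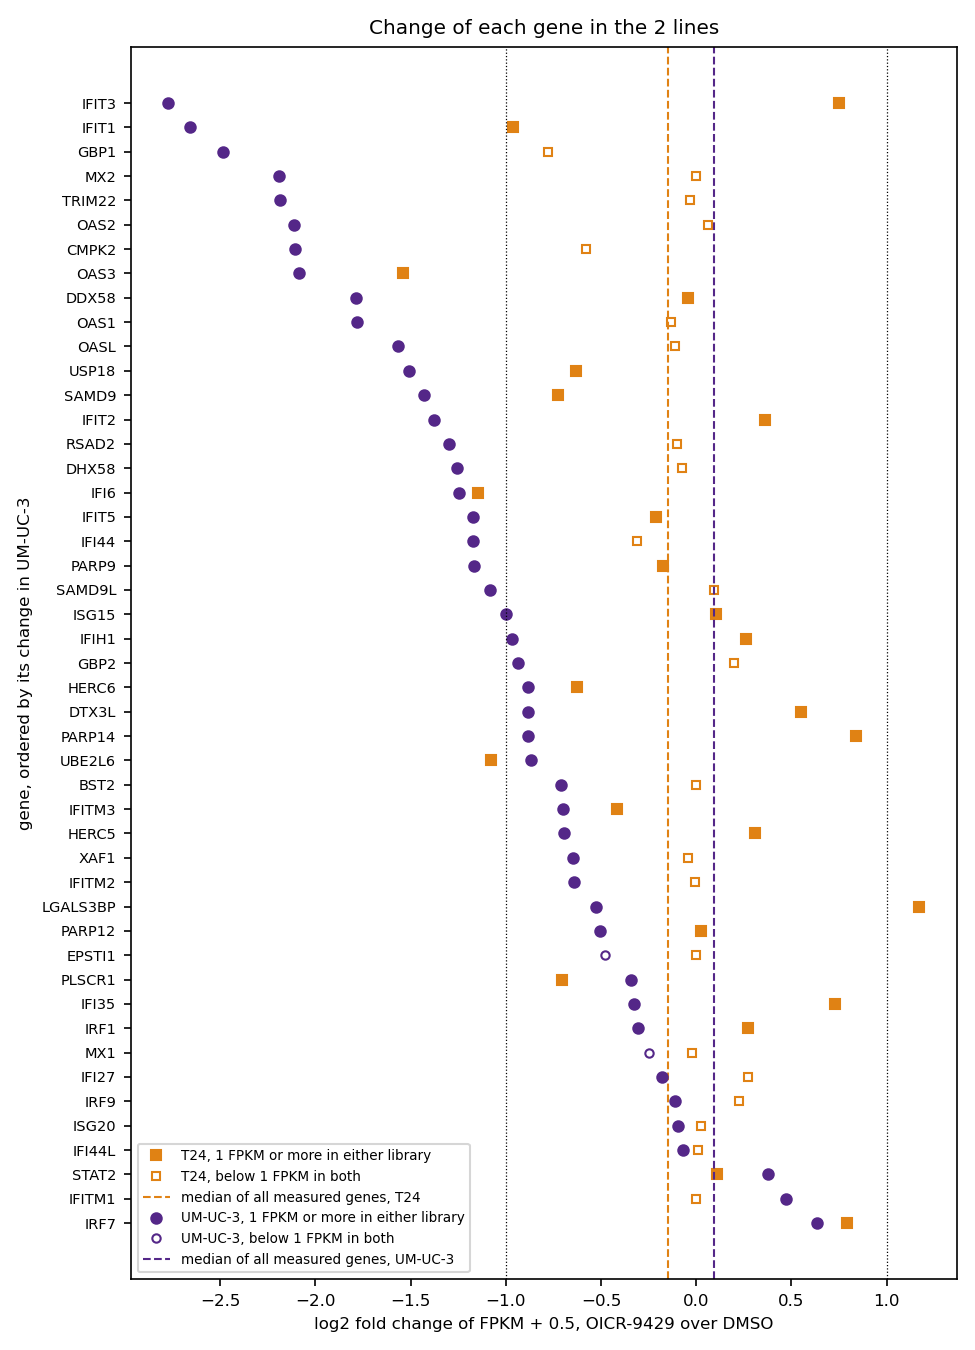
Log2 fold change of FPKM + 0.5, OICR-9429 over DMSO, of each of the 47 genes in T24 (squares) and UM-UC-3 (circles), open where both libraries were below 1 FPKM, with dotted lines at the size of a call and dashed lines at the medians of all measured genes (-0.15 and 0.09). Circles run between -2.77 (IFIT3) and 0.64 (IRF7), and squares between -1.54 (OAS3) and 1.17 (LGALS3BP).

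Across the 25 genes measured in both lines, 12 had lower values in OICR-9429 in both (48%), against 36.3% of the 11178 genes of the whole table measured in both. Higher values in both were found in 2 (8%), against 32.8% of all, and 11 were higher in T24 and lower in UM-UC-3 (44%), against 9.47% of all. OAS3 and IFI6 were called lower in both lines (8%), against 6.32% of all, a share near that of all genes. Over these 25 genes the T24 and UM-UC-3 log2 fold changes correlated with r = 0.37 (Pearson) and rho = 0.41 (Spearman), and those of all 11178 genes with r = 0.65 and rho = 0.56, as a description across genes, which are not replicates and come from the same 4 libraries.

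The mean change over T24 and UM-UC-3 was tested in limma with the line as a term, which left 1 residual degree of freedom. Of the 40 interferon-stimulated genes tested, 2 fell at an adjusted p under 0.05, against 3.11% of 12584 genes, and 0 rose, against 0.811%. At an unadjusted p under 0.05, 8 of the 40 fell and 1 rose (IRF7). These counts are not set against the share of all genes and are not read as a result. For OAS3 the estimate was -1.81 on the log2 scale (SE 0.26, limma adjusted p = 0.024), and both treated libraries were lower. That of IFI6 was -1.19 (SE 0.22, limma adjusted p = 0.048), again with both treated libraries lower. IFIT1 (-1.81, SE 0.45, limma adjusted p = 0.096) and UBE2L6 (-0.97, SE 0.26, limma adjusted p = 0.11) were lower in both lines and did not pass. Over the alternatives the adjusted p ran between 0.014 and 0.66 for OAS3 and between 0.034 and 0.99 for IFI6, the highest being without the cell line. In limma the variance of each gene was drawn towards a trend over all 12584 genes. With 1 residual degree of freedom, these p-values rest largely on that shared variance and not on the spread of the gene itself. The labels do not say whether the libraries came from separate cultures, so the p-values reach no further than these samples.

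Upstream and parallel genes of the pathway were read in 6 lists, of which 85 of 90 genes were in the tables. In UM-UC-3, 17 of the 64 measured were called lower (26.6%), against 12.1% of all measured genes, and 4 higher (6.25%), against 14%. In T24 4 of 56 were called lower (7.14%), a smaller share than the 13.5% of all, and 2 higher (3.57%), against 6.93%. Their median log2 fold change was -0.22 in UM-UC-3, against 0.09 for all genes, and 0.02 in T24, against -0.15.

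Interferon genes themselves were at low levels. In UM-UC-3 the type III interferon gene IFNL1 had 0.72 FPKM (18 reads) in OICR-9429 and 2.73 FPKM (66 reads) in DMSO and was called lower. IFNB1, a type I interferon made by many cell types, had 2.63 FPKM (66 reads) in OICR-9429 and 1.86 FPKM (45 reads) in DMSO in UM-UC-3. In T24 none of the 9 ligand genes in the tables reached 1 FPKM, and IFNL1 had 0 reads in both libraries. Of 6 receptor genes, IFNLR1, the type III receptor, was called lower in T24, with 0.319 FPKM in OICR-9429 and 1.53 FPKM in DMSO, and it was at 0 in both UM-UC-3 libraries. The most abundant receptor genes were not called in either line. IFNGR1 had 17.6 FPKM in OICR-9429 and 9.004 FPKM in DMSO in UM-UC-3, and 18.1 FPKM in OICR-9429 and 17.7 FPKM in DMSO in T24. IFNAR1 had 14.3 FPKM in OICR-9429 and 13.0 FPKM in DMSO in UM-UC-3, and 12.6 FPKM in OICR-9429 and 15.1 FPKM in DMSO in T24.

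Among the kinases of the receptors, JAK1 had 45.6 FPKM in OICR-9429 and 31.6 FPKM in DMSO in UM-UC-3, and 44.6 FPKM in OICR-9429 and 62.7 FPKM in DMSO in T24. JAK2, the kinase of the interferon gamma receptor, was the only gene of its list called in either line, with 13.7 FPKM in OICR-9429 and 6.31 FPKM in DMSO in UM-UC-3 (log2 fold change 1.06).

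Of 16 sensing genes, 14 were measured in UM-UC-3, where 3 were called lower (21.4%), against 12.1% of all genes, and 1 higher (7.14%), against 14%. In T24 10 were measured, of which 0 were called lower, against 13.5% of all, and 1 higher (10%), against 6.93%. TMEM173 encodes the DNA-sensing adaptor STING. In UM-UC-3 it had 0.392 FPKM in OICR-9429 and 6.34 FPKM in DMSO, a log2 fold change of -2.94. It was at or below 0.0266 FPKM in both T24 libraries. IKBKE, a kinase of IRF3, had 0.343 FPKM in OICR-9429 and 1.92 FPKM in DMSO in UM-UC-3. MYD88, the adaptor of Toll-like receptors, had 3.92 FPKM in OICR-9429 and 8.39 FPKM in DMSO in UM-UC-3. IRF5, a further inducer of interferon genes, had 2.29 FPKM in OICR-9429 and 0.664 FPKM in DMSO in UM-UC-3 and was called higher. TRIM25, the ubiquitin ligase that activates RIG-I, was called higher in T24, with 40.0 FPKM in OICR-9429 and 17.8 FPKM in DMSO, and it had 59.7 FPKM in OICR-9429 and 37.9 FPKM in DMSO in UM-UC-3. MAVS had 32.3 FPKM in OICR-9429 and 25.9 FPKM in DMSO in UM-UC-3, and 20.3 FPKM in OICR-9429 and 14.9 FPKM in DMSO in T24. None of 7 inhibitors of signalling was called in either line. The most abundant of these, PTPN11 and SOCS3, had log2 fold changes of -0.31 and -0.88 in UM-UC-3 and of -0.0020 and 0.10 in T24.

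Of 42 other interferon-induced genes, 13 of the 31 measured in UM-UC-3 were called lower (41.9%), against 12.1% of all genes, and 2 higher (6.45%), against 14%. In T24 3 of the 29 measured were called lower (10.3%), a smaller share than the 13.5% of all, and 1 higher (3.45%), against 6.93%. LY6E, a membrane protein that blocks coronavirus fusion, had 23.2 FPKM in OICR-9429 and 84.1 FPKM in DMSO in UM-UC-3, and 13.4 FPKM in OICR-9429 and 32.3 FPKM in DMSO in T24. It was called lower in both lines and was the only gene of the 6 lists to fall in limma (-1.54 on the log2 scale, SE 0.26, limma adjusted p = 0.037). TRIM14, an adaptor of MAVS signalling, was also called lower in both lines, with 12.7 FPKM in OICR-9429 and 37.6 FPKM in DMSO in UM-UC-3 and 6.81 FPKM in OICR-9429 and 15.4 FPKM in DMSO in T24 (limma adjusted p = 0.057). SLFN11, which halts stressed replication forks, was called lower in T24, with 8.74 FPKM in OICR-9429 and 30.8 FPKM in DMSO. In UM-UC-3 it was not called, with 17.9 FPKM in OICR-9429 and 21.1 FPKM in DMSO and a ratio of 0.851 (95% interval 0.811 to 0.893). The other 11 called lower in UM-UC-3 were DDX60L, GBP3, LAP3, PARP10, RTP4, SAMHD1, TDRD7, TRANK1, TRIM5, TRIM21 and ZC3HAV1, with log2 fold changes between -1.004 (TDRD7) and -1.81 (TRIM21). SLFN5 and WARS, the tryptophanyl-tRNA synthetase, ran the other way in UM-UC-3. SLFN5 had 16.03 FPKM in OICR-9429 and 4.30 FPKM in DMSO there, and WARS had 40.7 FPKM in OICR-9429 and 12.9 FPKM in DMSO. IFITM10, a less studied relative of the IFITM genes, was called higher in T24, with 1.91 FPKM in OICR-9429 and 0.00724 FPKM in DMSO. Whether interferon induces IFITM10 is not shown by these data. In UM-UC-3 it also had a higher value, with 0.337 FPKM (47 reads) in OICR-9429 and 0.00741 FPKM (1 read) in DMSO. It stayed below the FPKM minimum there and was not called. ADAR, the RNA editing enzyme that keeps self RNA from RNA sensors, was abundant and not called in either line, with 73.9 FPKM in OICR-9429 and 76.6 FPKM in DMSO in UM-UC-3 and 65.2 FPKM in OICR-9429 and 55.7 FPKM in DMSO in T24.

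**Figure D5:**
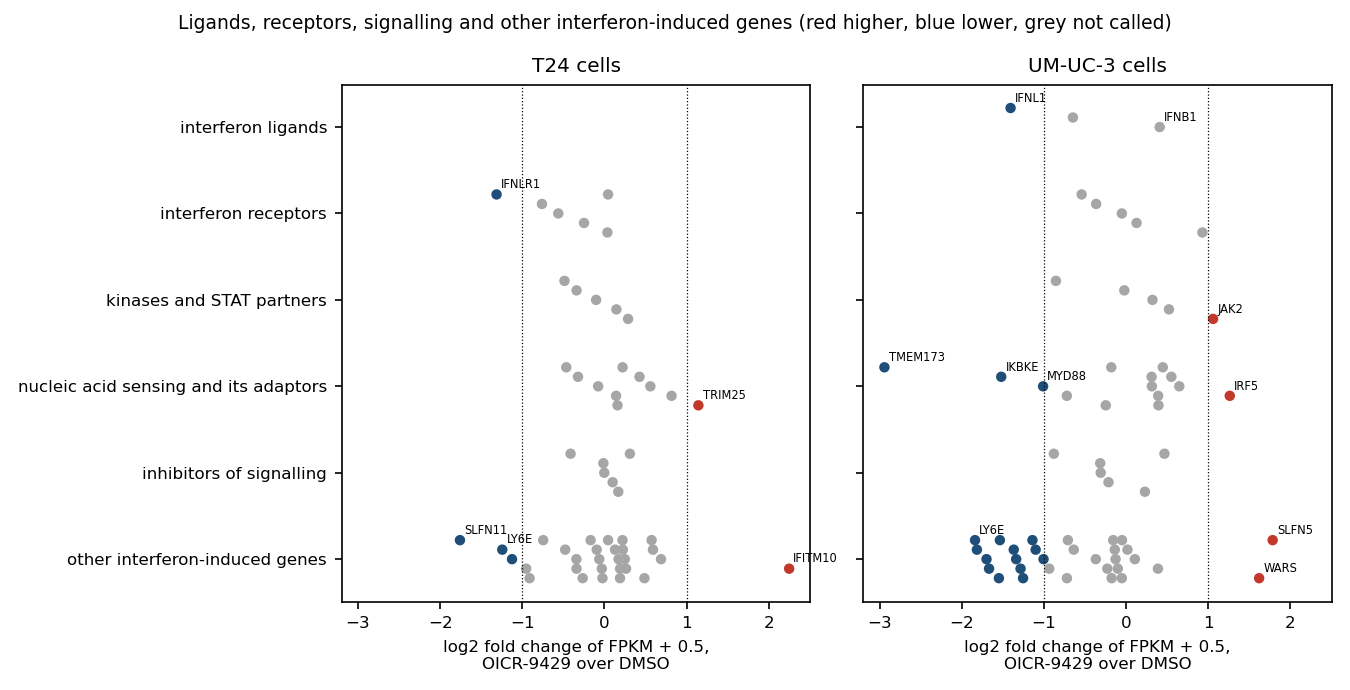
Log2 fold change of FPKM + 0.5, OICR-9429 over DMSO, of the measured genes of 6 lists in T24 (left) and UM-UC-3 (right), red where called higher, blue where called lower and grey where not called. Blue points in UM-UC-3 gather among the other interferon-induced genes (13 of 31, or 41.9%, against 12.1% of all genes). Of the measured ligands 1 of 3 is blue, and of receptors, kinases and inhibitors 0 of 5, 0 of 5 and 0 of 6. These lists are too small to set beside the share of all genes.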

How the data were processed

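Bulk RNA of T24 and UM-UC-3 cells gave 4 libraries. Their deposited tables list 31319 genes in FPKM as the authors computed it. HISAT2 2.1.0, HTSeq 0.6.1, bcl2fastq 2.19.1 and hg19 are named in the submitters' processing notes, the paper names Ensembl references, DEGseq and n = 4 with no further account, and whether counting used strand is not given in the sources used here. FPKM are not counts, so no count test was run. Whole reads were worked back with merged exon lengths of GENCODE 29 (an annotation of GRCh38, used for lengths only) and 1 total per library. They came out whole within 1e-06 for 29029 genes (92.7%) in all libraries and for 45 of the 47 members. For ISG15 and IFIH1 the length was searched, so their reads are less certain.

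The 47 genes, the 6 pathway lists and the tests were chosen with earlier results of these data known. Named in the text are all members at 1 FPKM or more in any library, the others by range, and of each list the genes called and the 2 most abundant. Calls within a line follow the rule of size (pseudocount 0.5). limma 3.58.1 (R 4.3.3) was fitted with a variance trend to log2(FPKM + 0.5) of 12584 genes with 1 FPKM in at least 2 libraries, with treatment and cell line as terms and Benjamini-Hochberg adjustment over all of them. The cell line pairs the libraries, as the labels give it. The fit was also run on simulated data whose changed genes moved alike in both lines. Responses that differ between the lines were not simulated, so that run does not show how the fit treats them. Alternatives were other pseudocounts, FPKM minimums and folds, TMM and median scaling, and limma without the trend or the cell line. Close copies (IFITM, GBP and IFI44 genes) and overlapping starts (RSAD2 and CMPK2, PARP9 and DTX3L) can share reads and are uncertain. Python 3.11.15 with numpy 2.4.6, pandas 2.3.3, scipy 1.17.1 and matplotlib 3.10.9 was used. Other columns of values not used numbered 0. The values of 1 gene of the pathway lists are not reported here.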

Additional observations from a re-analysis of the deposited data

Results flagged for a closer look

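Among the 47 genes and the pathway lists, 9 genes had a call in 1 line and the opposite sign in the other. No share of all genes under this rule is given, so the count is not read as a result. Each line has 1 library per condition, so none of these differences was tested. They are given as the log2 fold change in T24 minus that in UM-UC-3. Among the 47 genes, IFIT3 had a difference of 3.52 (T24 0.75, UM-UC-3 -2.77), IFIT2 of 1.74 (T24 0.36, UM-UC-3 -1.38) and LGALS3BP of 1.70 (T24 1.17, UM-UC-3 -0.53). The T24 values of IFIT2 and IFIT3 rest on 53 to 132 reads per library. Among the pathway genes, TRIM21, a cytosolic antibody receptor, had a difference of 2.004, ZC3HAV1, an antiviral zinc finger protein, of 1.36, PARP10 of 1.31, MYD88 of 1.23 and TDRD7 of 1.22. WARS had the opposite signs, with -1.79 (T24 -0.17, UM-UC-3 1.62), but its T24 value lay near the T24 median of all measured genes, -0.15.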

How the results depend on the processing

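Of 840 values of single genes recomputed under other settings, 728 were counted as within the counting interval of the ratio, 112 moved beyond it and 0 reversed a call. Changes of the FPKM minimum leave the value of a single gene as it is, so those values could not move. Values without a finite interval could also only be counted as within it. The 728 is therefore not a measure of stability. The 4 genes called in T24 became 7 with a pseudocount of 0.1, 2 with a pseudocount of 1, 13 at a fold of at least 1.5, 0 at a fold of at least 4 and 2 after TMM scaling. The 6 pathway genes called in T24 became 13 at a fold of 1.5 and 1 at a fold of 4. The 21 genes called in UM-UC-3 became 34 at a fold of 1.5 and 8 at a fold of 4, and the 21 pathway genes became 1 at a fold of 4. In both lines the numbers of all genes called also rose at a fold of 1.5 and with a pseudocount of 0.1. They fell at a fold of 4 and with a pseudocount of 1. The counts of called genes under these settings are not set against the share of all genes. They are not read as results about the listed genes. The T24 median log2 fold change of 0.02 became 0.23 with TMM and 0.20 with median scaling, as the median of all genes moved from -0.15 to 0.01 and -0.01. The UM-UC-3 median of -0.97 became -1.06 with TMM and -1.09 with a minimum of 5 FPKM. The median difference of the lines in DMSO, -3.44, became -4.11 with a pseudocount of 0.1, -2.82 with a pseudocount of 1, -3.10 with no minimum and -3.69 with a minimum of 5 FPKM. In limma the 2 genes became 1 (OAS3) with a pseudocount of 1, and 0 without the cell line as replicate block, without the FPKM minimum or without the variance trend. At an unadjusted p under 0.05 those 3 fits held 0, 7 and 8 of the genes, again not set against the share of all genes. With TMM the 2 genes were OAS3 and IFIT1. Leaving out a library leaves no comparison within its line, so no such fit was run. Beyond the alternatives' own construction, the cause of these shifts was not tested. Low read numbers limit T24 most, where 15 genes in each library had fewer than 20 reads at library sizes close to those of UM-UC-3.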
